A study of Mus musculus with 21 samples.

Results

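Immediate early genes are the genes that cells transcribe within minutes of a stimulus, without making new protein first. The set described here holds 10 of them out of the 56691 genes measured: *Fos*, *Fosb*, *Jun*, *Junb*, *Egr1*, *Nr4a1*, *Nr4a2*, *Nr4a3*, *Ier2* and *Dusp1*. They were taken from the expression table by gene symbol, and they were chosen by their measured values in these same libraries. Their levels and fold changes are therefore given as a description, with no p-value, and are not used as evidence.

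The data were 21 RNA libraries from mouse hearts in 4 groups. Control (n = 5) came from mice with no tumor and no doxorubicin (DOX). The study describes the mice without the drug, in Control and Tb, as given normal saline. DOX (n = 5) came from mice with no tumor given the drug, an anthracycline used against cancer that is known for its toxicity to the heart. Tb (n = 6) came from tumor-bearing mice without the drug, and Tb-DOX (n = 5) from tumor-bearing mice that received it. By the methods, DOX was injected into the peritoneum at 5 mg/kg each week over 3 weeks, and the tumors were grown from 4T1 cells, a mouse breast cancer line, placed under the skin. The 4T1 cells are 1 line, so the tumor-bearing groups stand for that tumor only. Strain, sex, age and the time between the last dose and the collection of the hearts are not given in the sources used here. The sample labels name the 4T-1 line as the source of every library. Markers of heart muscle cells (*Myh6*, *Tnnt2*, *Tnni3*, *Actc1*, *Ryr2* and *Myl2*) summed to between 10117 and 16102 FPKM (counts scaled by exon length and library total) over the 21 libraries, levels that belong to heart muscle and not to a breast cancer line. In whole hearts, fewer cells of a type and less RNA per cell cannot be told apart.

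The products of these genes fall into 4 kinds. Fos and Fosb join with Jun and Junb to form the AP-1 transcription factors, which carry growth, stress and inflammatory signals to their target genes. Egr1 is a zinc finger transcription factor that is switched on through serum response factor and the kinase ERK. Nr4a1, Nr4a2 and Nr4a3 are orphan nuclear receptors whose activity follows from how much of them is made. Ier2 is a small nuclear protein of the early response, and Dusp1 is a phosphatase that removes phosphate from p38, JNK and ERK and so turns the same signals off. The mRNAs of such genes are short-lived, and handling, stretch, ischemia, cytokines and adrenergic signals are all known to induce them in heart tissue.

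Many of these genes are also switched on by the factor CREB, which binds the cAMP response element (CRE). The 250 bases before the transcription start are shown for 4 genes that the results turn on (*Fos* and *Fosb*, which had the highest ratios in 1 Tb library, *Jun*, which was lower in DOX, and *Nr4a1*, which was highest in 1 DOX library), as RefSeq gives them on GRCm38.p6, each read 5′ to 3′ on the strand of the gene. Capitals mark the CRE half-site TGACG on either strand in *Fos*, *Fosb* and *Nr4a1*, the TATA box TATAAA in *Fos*, the EGR site GCGNGGGCG on either strand in *Fosb* and *Nr4a1* and the octamer TGACATCA in *Jun*. The windows are chr12:85473640-85473889 (plus strand), chr7:19310046-19310295 (minus strand), chr4:95052223-95052472 (minus strand) and chr15:101266596-101266845 (plus strand), in the order shown.
Fos: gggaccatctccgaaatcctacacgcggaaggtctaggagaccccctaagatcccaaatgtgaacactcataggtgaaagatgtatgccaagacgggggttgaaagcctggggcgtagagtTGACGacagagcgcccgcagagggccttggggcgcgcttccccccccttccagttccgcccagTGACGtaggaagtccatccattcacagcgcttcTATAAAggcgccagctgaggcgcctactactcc
Fosb: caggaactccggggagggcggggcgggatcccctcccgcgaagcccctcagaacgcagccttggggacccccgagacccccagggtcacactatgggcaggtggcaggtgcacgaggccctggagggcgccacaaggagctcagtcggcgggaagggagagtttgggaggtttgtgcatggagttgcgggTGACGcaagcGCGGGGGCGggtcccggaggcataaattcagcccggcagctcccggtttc
Jun: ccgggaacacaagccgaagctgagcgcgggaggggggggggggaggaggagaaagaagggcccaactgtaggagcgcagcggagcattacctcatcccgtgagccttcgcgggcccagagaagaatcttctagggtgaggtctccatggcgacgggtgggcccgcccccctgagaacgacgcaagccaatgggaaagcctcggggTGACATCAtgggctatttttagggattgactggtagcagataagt
Nr4a1: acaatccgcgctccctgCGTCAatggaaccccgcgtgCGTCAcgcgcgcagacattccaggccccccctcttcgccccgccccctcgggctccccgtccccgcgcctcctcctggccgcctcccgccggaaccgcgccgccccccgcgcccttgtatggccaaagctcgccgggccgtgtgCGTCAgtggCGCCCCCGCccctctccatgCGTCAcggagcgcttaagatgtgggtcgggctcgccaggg

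Of the 10 genes, 8 had a promoter window. The half-site TGACG stood in 7 of these 8, against 17.8% of 32851 promoter windows of the same length. It occurred 4 times each in *Nr4a1*, *Nr4a2* and *Nr4a3*, 3 times in *Dusp1*, 2 times in *Fos* and once each in *Fosb* and *Junb*, and it did not occur in *Jun*. The full palindrome TGACGTCA, which contains the half-site on both strands, was found once, in *Dusp1*, and is in 1.55% of all windows. The octamer TGACATCA, a known AP-1 and ATF site, was found in *Jun* and is in 2.93% of all windows. The EGR site GCGNGGGCG was found in *Fosb*, *Nr4a1* and *Nr4a2* and is in 4.7% of all windows. TATAAA was found in *Fos* and *Nr4a2*, and in 12.4% of all windows. The AP-1 site TGANTCA and the CArG box of serum response factor were in none of the 8 windows and in 6.75% and 1.47% of all. These are matches of letters on both strands and not measured binding.

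Depth ranged from 13521200 to 18601445 counts per library. Mitochondrial genes took 14.6% of the counts in library Control-3 and 18.3% to 28.9% in the others. The 10 genes together took 18663 counts in library Tb-5 and between 1228 and 4210 in each of the other 20 libraries. Jun and Dusp1 mRNA had the highest levels per length, with means of 15.1 and 14.3 FPKM over the 21 libraries. *Nr4a2* had the lowest at 0.333 FPKM and stayed under the minimum mean of 0.5 FPKM set for testing, so 9 of the 10 genes entered the test. *Fosb* entered only through library Tb-5, with a mean of 0.867 FPKM over all libraries and 0.135 FPKM without it. *Fosb* is therefore read below with and without that library.

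Library Tb-5 stood apart from the other libraries. It held the highest value of all 21 libraries for 9 of the 10 genes, and the highest of the Tb group for 10 of 10. Over the 13990 genes tested, 11.5% were highest of all libraries in Tb-5 and 20.6% were highest of the Tb group there. *Fos* reached 74.55 FPKM in Tb-5, 33.3 times the median of the other 5 Tb libraries. *Egr1* reached 51.88 FPKM, 16.2 times that median. *Fosb*, at 15.51 FPKM, was at 111 times that median. For the other genes the ratio lay between 2.83 for *Ier2* and 7.62 for *Nr4a3*. *Ier2*, *Jun* and *Dusp1* had the lowest ratios, at 2.83, 2.94 and 3.27, and *Nr4a2* was at 4.90 times the median, which for it was 0.19 FPKM. *Nr4a1* was the exception among the highest values, at 17.93 FPKM in Tb-5 and 24.92 FPKM in DOX-4.

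**Figure D1:**
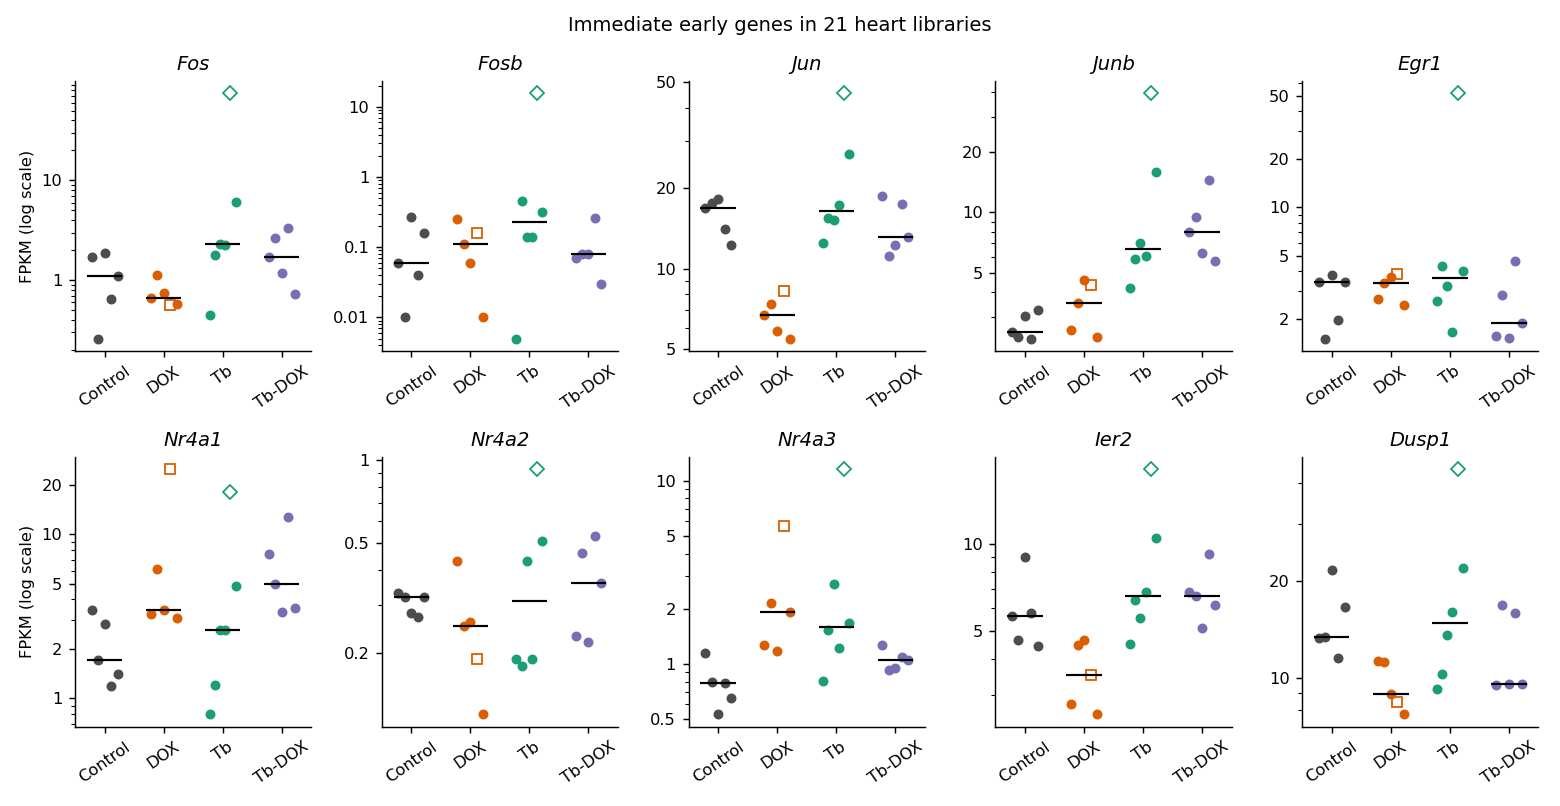
FPKM (log axis) of each gene in each of the 21 libraries by group. Points are libraries, bars are group medians, the open diamond is Tb-5, the open square is DOX-4, and Tb-1 with 0 counts of Fosb is drawn at the foot of its panel. The diamond is the highest point in 9 of 10 panels, and in the Nr4a1 panel the square at 24.92 FPKM lies above it.

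The same library held the highest values for most other early response genes. Of 85 related genes tested, 55 (64.7%) were at their highest of 21 libraries in Tb-5, against 11.5% of all genes tested. The share was 7 of 7 for the other AP-1 genes, 10 of 12 for other early transcription factors and 20 of 24 for early response effectors. It was 9 of 13 for the feedback phosphatases and ERK inhibitors and 4 of 6 for the genes of AU-rich mRNA decay, which degrade short-lived transcripts. For the kinases and factors that act upstream of these genes it was 5 of 23, and none of the 23 was at least 2-fold above the median of the other Tb libraries. *Il6*, a cytokine of acute inflammation, was at 38.12 FPKM in Tb-5 and at 0 to 0.94 FPKM in the other libraries. *Atf3*, a stress-induced partner of AP-1, was at 81.69 FPKM in Tb-5, at 66.35 FPKM in DOX-5 and at 0.9 to 4.5 FPKM in the rest. DOX-5 also held the highest *Ccn2* of the 21 libraries, at 272.94 FPKM against 262.61 FPKM in Tb-5, and none of the 10 genes was highest there. Cardiac muscle markers summed to 10117 FPKM in Tb-5, the lowest of the 21 libraries, and to 10212 FPKM in Tb-6. Single markers did not all go that way. *Myl2*, at 2620.82 FPKM, was lowest of the 21 in Tb-5, and *Ryr2*, at 75.1 FPKM, was highest there. *Tnnt2*, at 1693.58 FPKM, was above its values in Tb-1 to Tb-4. Depth and the mitochondrial share of Tb-5, 17771129 counts and 23.6%, were within the range of the other libraries. Its T cell markers summed to 11.52 FPKM, against 0.89 to 1.82 FPKM in the other Tb libraries. *Cd3e* made up 9.74 FPKM of that sum, *Cd3d* was at 1.36 FPKM, and *Cd3g*, *Cd4*, *Cd8a* and *Trac* were at 0.0 to 0.24 FPKM. Its adipocyte markers summed to 229 FPKM, the highest of the 21, of which *Fabp4* made up 228.49 FPKM. *Adipoq*, *Cfd* and *Plin1* were at 0.0 to 0.18 FPKM there. Tb-5 also held the lowest value of all libraries for 2428 of the 13990 genes, more than any other library. On the log2 scale it correlated with the other Tb libraries across genes at 0.865 to 0.912, and these among themselves at 0.915 to 0.962. The part of these features in the levels of the early genes was not tested.

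**Figure D2:**
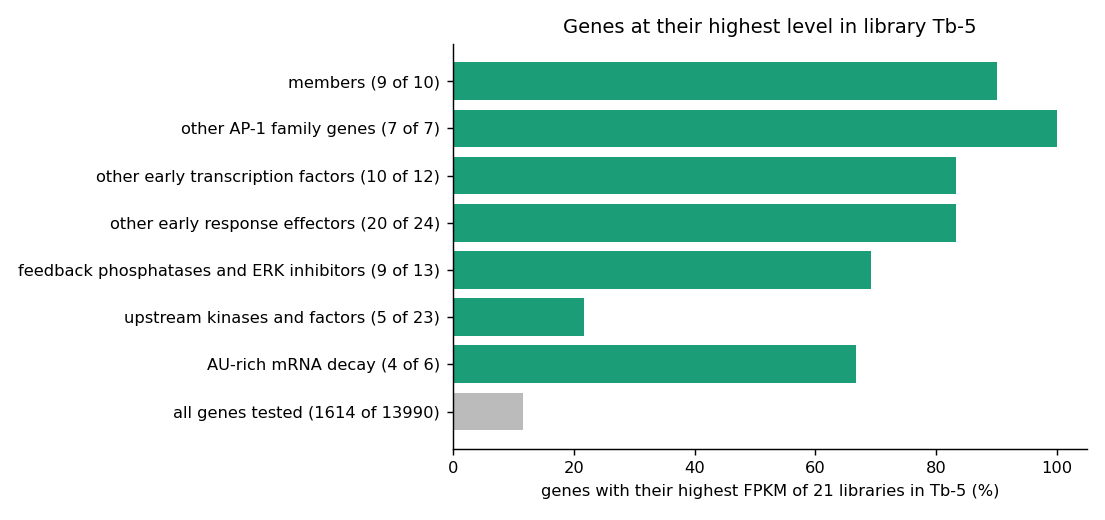
Share of the genes of each list (horizontal axis, percent) that had their highest FPKM of 21 libraries in Tb-5, with the numbers beside each list name. The share was 90.0% for the 10 genes, 21.7% for the upstream kinases and factors and 11.5% for all genes tested (grey).

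Fold changes come from the counts, with 1 fit over the 4 groups and TMM scaling in edgeR, and a gene was called where its fold change reached 1 in either direction on the log2 scale with an adjusted p under 0.05. In hearts without a tumor, 3 of the 9 genes tested were called between DOX and Control, *Jun* lower and *Nr4a1* and *Nr4a3* higher, where 9.95% of all genes were called. Groups did not overlap for *Jun*, *Nr4a3* and *Dusp1*, and for 25.2% of all genes. Without DOX-4 only *Jun* was called, with 8.62% of all genes. *Jun* was also the 1 gene called without Control-5, with 1319 of the 13990 genes. Under the replicate block 2 of the 9 were called, with 1378 of the 13990 genes. In tumor-bearing hearts, 1 of 9 was called between Tb-DOX and Tb (*Fosb*, lower), where 1.11% of all genes were called. *Fosb* entered the test only through Tb-5, a library of this comparison, so its call cannot be set against that share. It is also in the counts of 9 that follow. At an unadjusted p under 0.05 edgeR counted 6 of the 9 lower and 0 higher, with 20.4% of all genes in either direction and 11.1% lower. The groups overlapped for each of the 9, and 4.30% of all genes did not overlap. The count called was 0 when any single Tb-DOX library was left out, with 83 to 136 of the 13990 genes called. It was 2, 2 and 3 without Tb-1, Tb-4 and Tb-6, with 112, 138 and 238 of the 13990 genes. Without Tb-5, edgeR called 0 of the same 9, with *Fosb* still among them. It counted 1 higher and 0 lower at an unadjusted p under 0.05, with 2940 of the 13990 genes at that p. Of all genes 1.21% were called and 7.34% did not overlap. These 2 comparisons share no library.

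Between Tb and Control, 4 of 9 were called, all higher in Tb (*Fos*, *Fosb*, *Junb* and *Nr4a3*), where 3.60% of all genes were called. Of these *Fosb* entered the test only through Tb-5, so its call cannot be set against that share. Without Tb-5 only *Junb* was called, with 2.72% of all genes. The count was 1 or 2 when any single Control library was left out, with 410 to 439 of the 13990 genes called. *Junb* was also the one gene of the 9 whose groups did not overlap, with or without Tb-5, where 5.73% and 6.63% of all genes did not. Between Tb-DOX and DOX 0 of 9 were called by edgeR, where 5.62% of all genes were called, and 3 of 9 did not overlap, *Jun*, *Junb* and *Ier2*, against 15.8% of all genes. At an unadjusted p under 0.05 edgeR counted 3 of these 9 higher and 1 lower, where 31.9% of all genes passed, and DESeq2 called 0 of the 6 for which it gave a p. DESeq2 gave none for *Fos*, *Fosb* and *Egr1* in any comparison, since it sets aside genes with an outlying count. Without Tb-5, which is in neither group, edgeR called 2 of 9 between Tb-DOX and DOX, *Junb* higher and *Nr4a3* lower. Of the 13990 genes 911 were called in that fit. The interaction, which asks whether the DOX effect differed between hearts with and without a tumor, called 1 of 9, *Nr4a3*, where 3.89% of all genes were called, and the same gene without Tb-5, where 3.08% were. Under the replicate block it called 0 of 9. The Tb against Control and Tb-DOX against DOX comparisons reuse the libraries of the first pair. Over the 9 genes the median log2 fold change between Tb and Control was 2.08 with all libraries and 0.13 without Tb-5, against -0.01 over all genes tested in both cases. Between Tb-DOX and Tb it was -0.69 and -0.23, against -0.02 over all genes with all libraries.

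**Figure D3:**
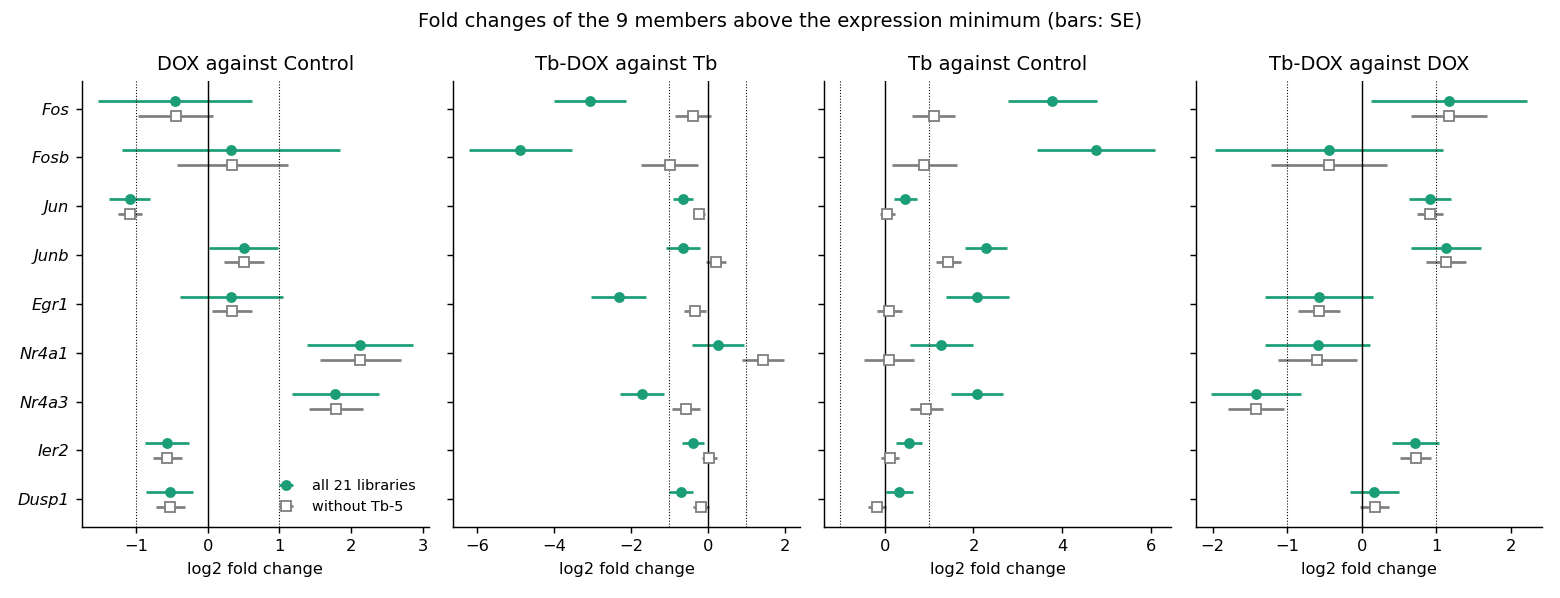
Log2 fold changes (horizontal axis) of the 9 genes tested in 4 comparisons, with all 21 libraries (filled) and without Tb-5 (open squares). Bars are SE, the solid line is 0 and dotted lines mark 1 and -1. Leaving out Tb-5 moved Fos between Tb and Control from 3.78 to 1.10 and left Jun between DOX and Control at -1.09 and -1.08.

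*Jun* (chr4:94937271-94940459, minus strand, GRCm39), which encodes the DNA-binding partner that AP-1 dimers rest on, separated DOX from Control. Control libraries held 16.91, 17.58, 18.21, 14.05 and 12.26 FPKM, and DOX libraries held 6.71, 7.35, 5.81, 8.20 and 5.46 FPKM. Every DOX library was lower than every Control library, and the highest DOX value was 8.20 FPKM against a lowest Control value of 12.26 FPKM. Means were 15.8 ± 2.54 (SD, n = 5) in Control and 6.71 ± 1.12 (SD, n = 5) in DOX, with a log2 fold change of -1.09 (SE 0.28). The call was made in each of the 21 fits that left out 1 library, with -1.18 (SE 0.30) without DOX-4.

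In tumor-bearing hearts *Jun* overlapped Control with or without the drug. Tb-DOX libraries held 18.71, 11.11, 12.22, 17.50 and 13.08 FPKM, with a mean of 14.5 ± 3.37 (SD, n = 5). Tb libraries ranged from 12.42 to 45.40 FPKM with a median of 16.4 FPKM, and the range ended at 26.77 FPKM without Tb-5. The Tb-DOX and Tb groups overlapped, and their log2 fold change was -0.64 (SE 0.27), or -0.23 (SE 0.17) without Tb-5. All 5 Tb-DOX libraries were above all 5 DOX libraries, with a log2 fold change of 0.91 (SE 0.28), which is under the minimum of 1. The interaction was 0.44 (SE 0.38), and 0.85 (SE 0.24) without Tb-5, and both values lie under the minimum of 1 that a call needs. The gene overlaps *Junos* on the other strand, which had a mean of 0.224 FPKM.

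*Junb* (chr8:85701113-85705347, minus strand, GRCm39) encodes an AP-1 subunit that often acts against Jun. Control libraries held 2.52, 2.38, 3.03, 2.35 and 3.25 FPKM. Tb libraries ranged from 4.22 to 39.23 FPKM with a median of 6.54 FPKM. Every Tb library was above every Control library, also when Tb-5 was left out. Means were 2.71 ± 0.409 (SD, n = 5) in Control and 13.0 ± 13.5 (SD, n = 6) in Tb, or 7.81 ± 4.61 (SD, n = 5) without Tb-5. The log2 fold change was 2.28 (SE 0.47), and 1.43 (SE 0.27) without Tb-5, and it was called in each of the 21 fits that left out 1 library.

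With the drug the order was the same. DOX libraries held 2.59, 3.53, 4.59, 4.33 and 2.39 FPKM of *Junb* and Tb-DOX libraries 7.95, 9.45, 6.27, 14.54 and 5.72 FPKM. The groups did not overlap, and the log2 fold change between Tb-DOX and DOX was 1.13 (SE 0.47). It was not called in the fit of all libraries and was called without Tb-5 at the same 1.13 with a smaller SE of 0.27. DOX and Control overlapped (0.50, SE 0.48), as did Tb-DOX and Tb (-0.65, SE 0.44, and 0.20, SE 0.26, without Tb-5). The ascending order of medians was Control, DOX, Tb and Tb-DOX, at 2.52, 3.53, 6.54 and 7.95 FPKM, and each group overlapped with its neighbours in that order.

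Neutrophil markers moved with *Junb*. The 6 markers (*S100a8*, *S100a9*, *Retnlg*, *Ngp*, *Camp* and *Mmp8*) summed to 1.03 to 4.32 FPKM in Control, 8.22 to 85.4 FPKM in DOX, 806 to 7585 FPKM in Tb and 1212 to 6004 FPKM in Tb-DOX. All 6 were higher without overlap in Tb against Control and in Tb-DOX against DOX. The 3 libraries with the highest sums, Tb-6 at 7585, Tb-5 at 7056 and Tb-DOX-4 at 6004 FPKM, were those with the highest *Junb*, at 15.86, 39.23 and 14.54 FPKM. Tb-1 had the lowest sum and the lowest *Junb* of the Tb group. The part of these cells in the *Junb* level was not tested. Reads of *Junb* and of *Prdx2*, which lies over it on the other strand at a mean of 74.9 FPKM, cannot be told apart if the counting ignored strand, which is not given in the sources used here. *Prdx2* had a log2 fold change of 0.08 between Tb and Control.

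**Figure D4:**
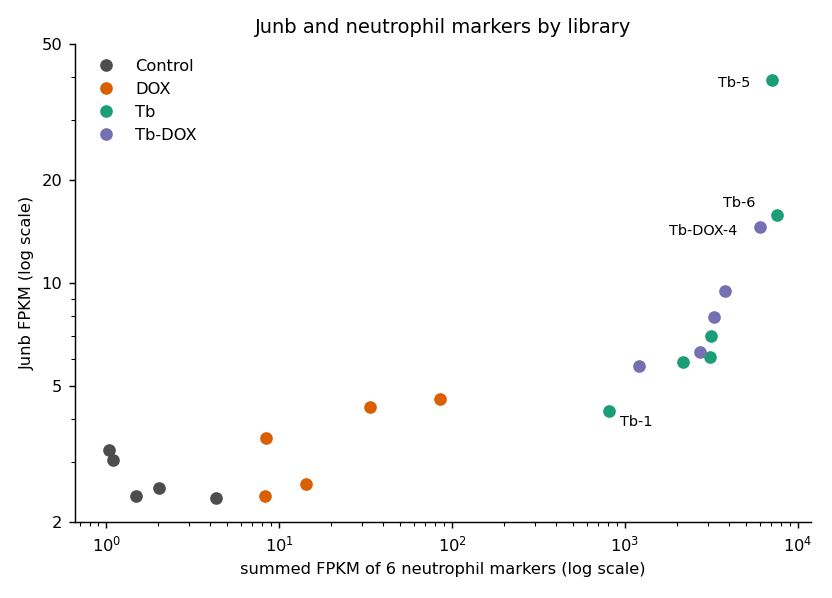
Junb FPKM against the summed FPKM of 6 neutrophil markers in each of the 21 libraries (both axes logarithmic), coloured by group. Control and DOX libraries lie at or below 4.59 FPKM and at sums up to 85.4 FPKM, and Tb and Tb-DOX libraries lie at sums of 806 FPKM and more, with Tb-5 at 39.23 FPKM.

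*Fos* (chr12:85520664-85524047, plus strand, GRCm39) was low in most hearts. Control libraries held 1.71, 0.26, 1.88, 0.65 and 1.09 FPKM, from 9 to 71 counts. DOX libraries held 0.67, 1.13, 0.74, 0.57 and 0.58 FPKM. The DOX values all lay within the range of Control. Tb libraries ranged from 0.45 to 74.55 FPKM with a median of 2.29 FPKM, and the highest after Tb-5 was Tb-6 at 6.09 FPKM. Tb-DOX libraries held 1.72, 2.62, 1.19, 3.34 and 0.73 FPKM. The 4 groups overlapped in every comparison. The log2 fold change between Tb and Control was 3.78 (SE 1.00) and called, and without Tb-5 it was 1.10 (SE 0.49) and not called. The call was also lost, at 3.53 to 3.77, without Control-2, Control-4 or Control-5. Between Tb-DOX and Tb it was -3.07 (SE 0.95), and -0.38 (SE 0.47) without Tb-5.

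*Fosb* (chr7:19036621-19043976, minus strand, GRCm39) was low outside Tb-5. Control libraries held 0.01 to 0.27 FPKM, from 1 to 27 counts, and DOX libraries 0.01 to 0.25 FPKM. Tb-DOX libraries held 0.03 to 0.26 FPKM. These 3 groups overlapped. Tb-1 had 0 counts, and the 3 counts that a count of 0 allows would be 0.0315 FPKM there, for counting error only. Tb-5 had 1721 counts, and the other Tb libraries at most 41. The calls between Tb and Control (4.77, SE 1.33) and between Tb-DOX and Tb (-4.88, SE 1.33) were made with Tb-5 only. Without it these were 0.89 (SE 0.74) and -0.99 (SE 0.74), and the calls were also lost when any single Control library or any single Tb-DOX library was left out, respectively.

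*Egr1* was likewise far above all other libraries in Tb-5. Control libraries held 3.40, 1.51, 3.76, 1.96 and 3.41 FPKM, and DOX libraries 2.66, 3.37, 3.67, 3.84 and 2.45 FPKM. Tb libraries ranged from 1.67 to 51.88 FPKM with a median of 3.60 FPKM, and the 5 other than Tb-5 ended at 4.30 FPKM. Tb-DOX libraries held 1.57, 2.83, 1.53, 4.62 and 1.88 FPKM. All groups overlapped, and none of the comparisons was called with all libraries and the minimum level of 0.5 FPKM. With no minimum level both Tb against Control and Tb-DOX against Tb were called. Between Tb and Control it was called without Tb-1 or Tb-4, and between Tb-DOX and Tb without Tb-4 or Tb-6. The log2 fold change between Tb and Control was 2.08 (SE 0.71) with Tb-5 and 0.10 (SE 0.28) without it, and between DOX and Control it was 0.33 (SE 0.72).

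Of the 3 nuclear receptor genes, *Nr4a1* and *Nr4a3* were called higher in DOX and *Nr4a2* was too low to be tested. *Nr4a3* (chr4:48045153-48086447, plus strand, GRCm39) separated DOX from Control. Control libraries held 1.15, 0.80, 0.53, 0.79 and 0.65 FPKM. DOX libraries held 1.26, 2.15, 1.18, 5.65 and 1.91 FPKM. Every DOX library was above every Control library, the closest pair being 1.18 and 1.15 FPKM, and DOX-4 was the highest. Means were 0.784 ± 0.233 (SD, n = 5) and 2.43 ± 1.85 (SD, n = 5), with 1.62 ± 0.479 (SD, n = 4) in DOX without DOX-4. The log2 fold change was 1.78 (SE 0.61) and called, and without DOX-4 it was 1.19 (SE 0.59) and not called. It was also not called without Control-3 (1.65) or Control-5 (1.72).

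In tumor-bearing hearts the fold change of *Nr4a3* had the opposite sign. Tb libraries held 0.81 to 11.58 FPKM with a median of 1.59 FPKM, and 0.81 to 2.73 FPKM without Tb-5. The call between Tb and Control, at 2.08 (SE 0.60), was lost without Tb-5, at 0.94 (SE 0.38), and when any single Control library was left out. Tb-DOX libraries held 1.26, 0.92, 0.95, 1.09 and 1.05 FPKM, a narrow range that overlapped both Control and Tb. The log2 fold change between Tb-DOX and Tb was -1.71 (SE 0.58), and -0.57 (SE 0.37) without Tb-5, and edgeR called neither, while DESeq2 called the gene with all libraries. The interaction was -3.50 (SE 0.84). It was called in each of the 21 fits that left out 1 library, at -2.36 (SE 0.53) without Tb-5 and at -2.90 without DOX-4, and it was not called under the replicate block. Between Tb-DOX and DOX it was -1.42 (SE 0.60), called, among the fits that left out 1 library, only without Tb-5, with the same -1.42 (SE 0.37), and also where only the groups compared were fitted.

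*Nr4a1* (chr15:101152150-101172676, plus strand, GRCm39) is an early gene of muscle and immune cells. Control libraries held 3.43, 1.72, 2.82, 1.19 and 1.40 FPKM and DOX libraries 3.27, 6.17, 3.43, 24.92 and 3.09 FPKM. The groups overlapped by 3 DOX libraries that lay at or below the highest Control library. Means were 2.11 ± 0.968 (SD, n = 5) and 8.18 ± 9.45 (SD, n = 5), and the DOX mean without DOX-4 was 3.99 ± 1.46 (SD, n = 4). The call at 2.12 (SE 0.74) was lost without DOX-4, at 1.06 (SE 0.66), and without Control-2, Control-4 or Control-5, at 1.98 to 2.06. Tb libraries held 0.80 to 17.93 FPKM with a median of 2.60 FPKM, and Tb-DOX libraries 7.62, 4.95, 3.35, 12.74 and 3.53 FPKM. Between Tb-DOX and Tb the log2 fold change was 0.26 (SE 0.67), and 1.43 (SE 0.55) without Tb-5, and neither was called.

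DOX-4 differed from Tb-5 in which of the 10 genes were high. There *Nr4a1* was 7.44 times and *Nr4a3* 3.56 times the median of the other DOX libraries, and the other 8 genes were between 0.745 and 1.88 times it. *Fos* at 0.57 FPKM was the lowest of its group in DOX-4. Among the 85 related genes 12 (14.1%) were at least 2-fold above that median, against 4.30% of all genes tested. The T cell marker *Cd3e* was at 66.73 FPKM (3854 counts) in DOX-4, and the other 5 T cell markers were at 0.0 to 0.45 FPKM (0 to 11 counts) there. Its part in the Nr4a values was not tested.

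*Nr4a2* (chr2:56996842-57014015, minus strand, GRCm39) was the least expressed of the family and lay between 0.12 and 0.53 FPKM in 20 libraries, from 7 to 33 counts, and at 0.93 FPKM in Tb-5. The groups overlapped in every comparison. In the fit with no minimum level its log2 fold changes were -0.11 (SE 0.44) between DOX and Control and 0.41 (SE 0.41) between Tb and Control.

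*Ier2* (chr8:85387960-85389483, minus strand, GRCm39) and *Dusp1* (chr17:26724564-26781102, minus strand, GRCm39) are the early nuclear protein and the phosphatase of the set. Control libraries held 5.62, 4.67, 9.03, 5.75 and 4.44 FPKM of *Ier2* and DOX libraries 2.79, 4.48, 4.65, 3.52 and 2.58 FPKM. The 2 groups overlapped narrowly, and the log2 fold change was -0.57 (SE 0.31). Tb-DOX libraries held 6.80, 6.59, 5.14, 9.21 and 6.14 FPKM, all above the DOX libraries, with a log2 fold change of 0.72 (SE 0.31) that was not called. Tb libraries ranged from 4.52 to 18.13 FPKM, and from 4.52 to 10.50 FPKM without Tb-5.

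Control libraries held 13.34, 13.40, 21.55, 11.57 and 16.65 FPKM of *Dusp1* and DOX libraries 11.28, 11.21, 8.97, 8.43 and 7.74 FPKM. All DOX libraries were below all Control libraries, with 11.28 and 11.57 FPKM as the closest pair. The log2 fold change was -0.53 (SE 0.33), under the minimum, and it was not called. Tb libraries held 9.29 to 44.31 FPKM with a median of 14.8 FPKM, and Tb-DOX libraries 9.56, 16.90, 9.60, 15.88 and 9.59 FPKM. Both overlapped Control. *Ergic1* lies over *Dusp1* on the other strand, with a mean of 2.66 FPKM and a log2 fold change of -0.01 between DOX and Control.

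Markers of other cells differed between DOX and Control: 3 of 6 fibroblast markers, 4 of 5 macrophage markers and 5 of 5 erythroid markers were lower without overlap, as was 1 of 4 adipocyte markers. In the same comparison 4 of 6 neutrophil markers and 1 of 6 T cell markers (*Cd3e*) were higher without overlap. The lower fibroblast markers were the matrix genes *Col1a1*, *Col3a1* and *Lum*. *Pdgfra*, *Dcn* and *Tcf21* overlapped, with *Pdgfra* at 6.59 to 9.49 FPKM in DOX and 5.32 to 7.35 FPKM in Control. The macrophage marker that overlapped, *Cd68*, was at 1.85 to 9.89 FPKM in DOX and 3.27 to 4.66 FPKM in Control. The sums were 138 to 242 FPKM in DOX and 214 to 269 FPKM in Control for fibroblasts, and 6.21 to 14.4 and 12.1 to 17.5 FPKM for macrophages. Those for erythroid cells were 4.77 to 146 and 252 to 1093 FPKM. Their part in the differences of these genes was not tested.

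The wider early response was read from 93 related genes in 6 lists, of which 85 entered the test. Between DOX and Control 5 of the 85 rose and 0 fell in edgeR, and likewise in DESeq2, which gave a p for 80 of them, and at an unadjusted p under 0.05 edgeR counted 18 higher and 12 lower. Of all genes 9.95% were called there and 45.9% passed the unadjusted p, so both shares were lower among the 85 with all libraries. *Per1*, a clock gene that CREB also induces, rose with a log2 fold change of 1.39 (SE 0.33, adjusted p = 0.00252, edgeR). Its libraries held 7.73 to 11.64 FPKM in Control and 13.99 to 35.08 FPKM in DOX, without overlap. *Dusp4*, a nuclear phosphatase of ERK and a relative of *Dusp1*, rose by 1.81 (SE 0.42, edgeR adjusted p = 0.00217), from 0.09 to 0.48 FPKM in Control to 0.57 to 1.27 FPKM in DOX. *Ccn2*, a matrix-associated growth factor, rose by 1.96 (SE 0.57, edgeR adjusted p = 0.0108), and *Socs3*, the inhibitor of JAK-STAT signals, by 2.04 (SE 0.72, edgeR adjusted p = 0.0307). The first 3 of these calls were made in every fit that left out 1 library, and that of *Socs3* was lost in 5 of 21. The median log2 fold change of the 85 was 0.12, against 0.00 over all genes tested. Without Tb-5, which is in neither group, 10 of the 85 were called, with 1470 of the 13990 genes. A fit of only the groups compared called 10 of the 85, with 1438 of the 13990 genes. In both fits the called share was not lower among the 85. The fifth gene called with all libraries was the kinase gene *Pim1*, named here after its values were seen.

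Between Tb and Control 12 of the 85 rose and 0 fell in edgeR, with 35 higher and 1 lower at an unadjusted p under 0.05, where 20.5% of all genes passed. DESeq2 called 14 higher and 0 lower, and edgeR called 3.60% of all genes. Without Tb-5 edgeR called 2 of the 85, near the 2.72% of all genes. It then counted 20 higher and 2 lower at an unadjusted p under 0.05, where 2216 of the 13990 genes passed. The 2 called were *Socs3* and *Btg1*, an inhibitor of proliferation. *Socs3* had a log2 fold change of 4.67 (SE 0.73, edgeR adjusted p = 0.000158) with all libraries and 3.37 without Tb-5. *Btg1* had 1.66 (SE 0.28, edgeR adjusted p = 0.000349) and 1.24. *Socs3* was at 0.43 to 1.00 FPKM in Control and 2.93 to 14.74 FPKM in the Tb libraries other than Tb-5, which held 63.8 FPKM. Calls that were lost without Tb-5 included *Myc* (2.68, edgeR adjusted p = 0.0218, and 1.28 without Tb-5) and *Fosl2* (1.77, edgeR adjusted p = 0.0198, and 1.02). The others named were *Batf* (2.42 and 1.85 without Tb-5), *Nfkbiz* (1.71 and 0.84), *Dusp5* (2.21 and 0.99) and the ERK-activated kinase gene *Rps6ka1* (1.12 and 0.98). These calls were also lost without some Control libraries and, for *Batf* and *Rps6ka1*, other Tb libraries, in 3 of the 21 fits for *Fosl2*, 4 for *Myc*, 5 each for *Nfkbiz* and *Dusp5*, 6 for *Batf* and 8 for *Rps6ka1*, the fit without Tb-5 included. *Zfp36l2*, an mRNA decay factor, had 1.19 with all libraries and 0.995 without Tb-5, where it missed only the minimum fold change (edgeR adjusted p = 0.0018). Tb-6 and not Tb-5 was the highest Tb library for *Rps6ka1* and *Zfp36l2*. *Il6*, one of the 12, reached the minimum level for testing only through Tb-5, with a mean of 1.96 FPKM over all libraries and 0.152 FPKM without it. Its call was lost in 4 of the 21 fits that left out 1 library, the fit without Tb-5 included. The median of the 85 was 0.41 with all libraries and 0.09 without Tb-5. Neutrophil markers differed between these groups as given for *Junb*, and 1 of 5 macrophage and 1 of 6 T cell markers were also higher without overlap. Their part was not tested here either.

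Between Tb-DOX and Tb 1 of the 85 was called, a share near the 1.11% of all genes. At an unadjusted p under 0.05 edgeR counted 23 of the 85 lower and 0 higher, where 11.1% of all genes were lower, and 8 lower and 2 higher without Tb-5, where 10.4% were lower. *Ccn1*, another matrix-associated early gene, fell with a log2 fold change of -3.03 (SE 0.70, edgeR adjusted p = 0.0167). It fell in every fit that left out 1 library, by 1.27 on the log2 scale without Tb-5. Tb-DOX libraries held 6.98 to 9.33 FPKM of *Ccn1* and Tb libraries 15.42 to 266.58 FPKM, without overlap. In this comparison 5 of 5 erythroid markers were lower without overlap, with sums of 2.96 to 39.97 FPKM in Tb-DOX and 527 to 975 FPKM in Tb, and 2 of 6 heart muscle markers were higher. Of the endothelial, fibroblast and macrophage markers 1 each was lower without overlap, and the part of these differences was not tested. Between Tb-DOX and DOX 5 of the 85 were called with all libraries, near the 5.62% of all genes. Of these 2 rose, *Rps6ka1* (1.39, edgeR adjusted p = 0.00634) and *Mrtfa*, a coactivator of serum response factor (1.08, edgeR adjusted p = 0.000481), and 3 fell, *Per1* (-1.62, edgeR adjusted p = 0.00194), *Ccn2* (-1.69, edgeR adjusted p = 0.0436) and the kinase gene *Sgk1* (-1.17, edgeR adjusted p = 0.0157). The call of *Ccn2* there was lost in 11 of the 21 fits that left out 1 library. Without Tb-5, which is in neither group, 12 of the 85 were called, 4 higher and 8 lower, with 911 of the 13990 genes. A fit of only the groups compared called 11 of the 85, with 809 of the 13990 genes. In both fits the share among the 85 was above that of all genes. In that comparison 6 of 6 neutrophil markers, 2 of 6 fibroblast, 2 of 5 macrophage, 1 of 6 T cell and 1 of 4 adipocyte markers were higher without overlap, and their part was not tested. At an unadjusted p under 0.05 edgeR counted 10 of the 85 higher and 15 lower there, where 31.9% of all genes passed. The interaction was negative at that p for 28 of the 85 and positive for 2, where 15.6% of all genes were negative, and for 23 and 4 without Tb-5, where 13.7% were. It called 4 of the 85, near the 3.89% of all genes, each with a negative value: *Per1* (-1.72, edgeR adjusted p = 0.0267), *Socs3* (-3.37, edgeR adjusted p = 0.0308), *Ccn1* (-3.57, edgeR adjusted p = 0.0274) and *Atf3* (-5.79, edgeR adjusted p = 0.0353). Without Tb-5 the first 3 were called and *Atf3* was not, at -2.88. Over the 21 fits that left out 1 library, the interaction of *Atf3* was lost in 11 and that of *Socs3* in 5, and under the replicate block none of the 85 was called.

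The genes whose levels followed the set most closely over the 21 libraries were *Ripk1*, *Akap13*, *Cd63*, *Tle3* and *Snx18*. Likeness was measured as Pearson's r of log2 CPM with the mean of the standardised log2 CPM of the members, and it was 0.93 for *Ripk1* and 0.92 for the other 4. Without Tb-5 the values were 0.75, 0.67, 0.77, 0.70 and 0.64 in the same order. These points share the libraries and 1 of them, Tb-5, is far from the rest, so the values are a description. Of the 20 closest genes 2 were on the related lists (*Klf6* and *Btg2*), and 4 of the 20 were also among the 20 closest without Tb-5.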

How the data were processed

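RNA of mouse hearts was sequenced as 21 libraries in 4 groups, as described above, with groups and replicate numbers taken from the labels. The authors enriched mRNA with oligo(dT) beads (the labels add rRNA depletion as an option), sequenced read pairs and trimmed them with Cutadapt. The submitters' processing notes name FastQC, HISAT2, HTSeq 0.6.1, DESeq2 1.34.0 and GRCm39. Whether the counting used strand is not given in the sources used here. The deposited table holds whole-number read counts and FPKM values per gene and library. The deposited FPKM equal the count divided by exonic size and library total, up to a constant, in 100% of values, so they are not corrected for composition.

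Here a quasi-likelihood model in edgeR 4.0.16 (R 4.3.3) was fitted to the counts of the 4 groups together after TMM scaling, each group having its own mean. A gene entered it when its FPKM averaged 0.5 or more across all libraries, which left 13990 of 56691, and the Benjamini-Hochberg adjustment ran over all of these. The rows that named no gene numbered 0. Nothing in the labels says that libraries came from separate animals, so p-values measure the spread between these libraries. DESeq2 1.42.0, RLE factors, library totals, other minimum levels, only the groups compared, the replicate number as a block, no minimum fold change and leaving out each library were the alternatives. The test was tried on simulated counts before use.

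Named genes were the 10 members, up to 6 genes called per related list (or the most abundant one), and the 5 genes most like the members. The members and lists were chosen with earlier results of these data known. The lists were other AP-1 genes, other early transcription factors, early response effectors, feedback phosphatases and ERK inhibitors, upstream kinases and factors, AU-rich mRNA decay, and markers of cardiomyocytes, endothelial cells, fibroblasts, smooth muscle, macrophages, neutrophils, T cells, erythroid cells and adipocytes. Promoter sequences came from RefSeq on GRCm38.p6, and gene coordinates are those of the deposited table. The endothelial, smooth muscle, adipocyte and T cell sums over all libraries were 92.4 to 181, 43.6 to 106, 81.9 to 229 and 0.15 to 67.5 FPKM. *Fabp4* made up nearly all of each adipocyte sum, at 81.91 to 228.49 FPKM, and *Cd3e* 66.73 FPKM of the highest T cell sum. Each p-value and interval for the members' own contrasts was left out.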

Additional observations from a re-analysis of the deposited data

Results flagged for a closer look

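In groups of 5 or 6 libraries, a value was set apart when its gap to the nearest other library was large for the range of the group (Dixon's critical value), which chance alone passes in about 1 of 20 groups. Of 40 sets of gene and group, 11 passed. At Tb-5, 7 genes did: *Fos* at 74.55, *Fosb* at 15.51, *Junb* at 39.23, *Egr1* at 51.88, *Nr4a1* at 17.93, *Nr4a3* at 11.58 and *Dusp1* at 44.31 FPKM. *Jun*, *Nr4a2* and *Ier2* were also highest there but did not pass. At DOX-4, *Nr4a1* at 24.92 and *Nr4a3* at 5.65 FPKM passed. The others were *Ier2* at 9.03 FPKM in Control-3, the library with the lowest mitochondrial share, and *Fosb* at 0.26 FPKM in Tb-DOX-4, which is 25 counts. These sets are not independent, since the genes share their libraries, and the genes were chosen by their values in these libraries, so the count of 11 cannot be read against that rate.

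The effect of DOX on *Nr4a3* differed between hearts with and without a tumor, with an interaction of -3.50 on the log2 scale. It was called with every library left out in turn, at -2.36 without Tb-5, and not under the replicate block. *Nr4a3* was chosen by values of these libraries, so this is a description.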

How the results depend on the processing

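Leaving out Tb-5 moved the count of members called from 1 to 0 between Tb-DOX and Tb, from 4 to 1 between Tb and Control and from 0 to 2 between Tb-DOX and DOX. All genes called moved from 155 to 169, from 504 to 381 and from 786 to 911 of 13990 in the same order. The 1 and the 4 include *Fosb*, which entered the test only through Tb-5. Leaving out any Control library gave 1 or 2 between Tb and Control, and leaving out any Tb-DOX library gave 0 between Tb-DOX and Tb. When single libraries were left out, the count was 1 to 3 between DOX and Control, 0 to 3 between Tb-DOX and Tb, 1 to 5 between Tb and Control, 0 to 2 between Tb-DOX and DOX and 1 in each for the interaction. Of the 13990 genes, the same fits called 1206 to 1537, 83 to 238, 381 to 606, 656 to 911 and 318 to 751 in the same order. No fold change of a called member changed direction under any alternative. Of 1241 member fold changes under alternatives 1217 moved by less than the spread and 24 by more. The spread was the mean SD of log2 CPM within the groups compared, Tb-5 included. *Fos* between Tb-DOX and Tb moved from -3.07 to -1.425 under the replicate block and still lay within it. Many fits left out a library of neither group compared, where a value can hardly move, so the 1217 do not measure stability. Between DOX and Control (3 members called), the higher minimum level (mean FPKM of 5) and the replicate block each gave 2. Between Tb-DOX and Tb (1 called), no filter on low expression gave 4. There the higher minimum level, a fit of only the groups compared and the replicate block each gave 0. DESeq2 gave a p for 6 of the 9 members and none for *Fos*, *Fosb* and *Egr1*, so its counts say nothing of those 3. It called 1 here, *Nr4a3*. Between Tb and Control (4 called), DESeq2 (*Junb* and *Nr4a3*, with no p for *Fos* and *Fosb*) and the higher minimum level each gave 2, and only the groups compared and the replicate block each gave 1. Between Tb-DOX and DOX (0 called), library totals gave 2, only the groups compared 3 and no minimum fold change 1. The interaction (1 called) gave 0 at the higher minimum level, which leaves out *Nr4a3*, and 0 under the replicate block. For the other changes the cause was not tested.

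Of all 13990 genes, only the groups compared called 1438 between DOX and Control, 87 between Tb-DOX and Tb, 413 between Tb and Control and 809 between Tb-DOX and DOX. With no minimum fold change 5071, 660, 879 and 2442 passed in the same order, and 1251 for the interaction. The replicate block called 1378, 191, 342 and 733, and 250 for the interaction. For the related genes between DOX and Control (5 called), only the groups compared gave 10 and no minimum fold change 19. Between Tb-DOX and Tb (1), no filter gave 3, only the groups compared 0 and no minimum fold change 4. Between Tb and Control (12), the higher minimum level and only the groups compared each gave 5, and the replicate block gave 3. Between Tb-DOX and DOX (5), the higher minimum level gave 2, only the groups compared 11 and no minimum fold change 14. The interaction (4) gave 7 with DESeq2, 10 with no filter, 8 with no minimum fold change and 0 under the replicate block. Leaving out libraries gave 3 to 10 between DOX and Control, 1 to 5 between Tb-DOX and Tb, 2 to 16 between Tb and Control, 3 to 12 between Tb-DOX and DOX and 2 to 8 for the interaction. The counts that moved by over 1.5 times were, in the same order, those without Control-2, Control-4 and DOX-4 (3 each), DOX-5 (8) and Tb-5 (10). Next came those without Tb-1, Tb-2, Tb-3 and Tb-4 (2 each) and Tb-6 (5). Between Tb and Control they were those without Control-2 and Control-4 (6 each), Control-3 (3), Control-5 (4) and Tb-5 (2). Between Tb-DOX and DOX they were those without DOX-5 and Tb-DOX-4 (3 each) and Tb-5 (12), and for the interaction those without Control-2, Control-4 and Control-5 (2 each), Tb-1 and Tb-3 (8 each) and Tb-2 (7).

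The replicate numbers did not pair the libraries: residuals of same-numbered libraries correlated at -0.257 to 0.232. Scaling by library totals shifted the median fold change over all genes (log2) to -0.14 between DOX and Control, 0.18 between Tb-DOX and DOX and 0.14 for the interaction. It moved the split of all genes called from 582 higher and 810 lower to 455 and 1092, from 611 and 175 to 881 and 117, and from 285 and 259 to 472 and 169 in the same order. Levels of *Fosb* and *Nr4a2* rested on few counts outside Tb-5.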
